A study of Mus musculus with 9 samples.

Results

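Chemokines are small secreted proteins that guide leukocytes through G protein-coupled receptors, and they are grouped as CC, CXC, CX3C or C by the spacing of the cysteines near the N terminus. Atypical chemokine receptors bind ligands without this signalling and can scavenge them. In brain tumours, monocyte-attracting ligands such as Ccl2 and interferon-inducible ligands such as Cxcl9 and Cxcl10 are known products of macrophages, microglia and tumour cells. The 56 chemokine genes described here, of 18639 entries measured, were taken by symbol: Ccl, Cxcl, Ccr or Cxcr followed by a digit, apart from the omission given with the processing, with Cx3cl1, Xcl1 and the atypical receptors Ackr1 to Ackr4. They comprise 35 ligands (21 CC, 12 CXC, Cx3cl1 and Xcl1), 17 conventional receptors and 4 atypical receptors.

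RNA was sequenced in bulk from tumour tissue of mouse brains on day 5 after resection of tumours grown from CT2A, a mouse glioma cell line. The 9 libraries fell into 3 groups of 3: ThTC, treated with cells that release IFNβ (a type I interferon) and GM-CSF (a myeloid growth factor); GFP-TC, treated with control cells; and sECM only, a label that names no cells. The series title calls the secreting cells CT2A cells and the recipient tumours wild type, and RNA of any CT2A cells given cannot be told apart from that of the tumour. The strain and age of the mice, the dose of cells and the construct behind each secreted factor are not stated in these sources. Nothing in the labels ties each library to its own animal, so the p-values reflect the spread among these 9 libraries, which may be technical. Values are TPM, a transcript level corrected for gene length and library total, so levels of different genes can be set side by side; TPM keeps no read depth, and the precision of a low value is unknown.

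The libraries differed in tissue content within groups. The summed TPM of 10 neuron genes ran from 311 to 1472 with ThTC, 226 to 1264 with GFP-TC and 357 to 508 with sECM only. That of 10 T cell genes ran from 111 to 127 in ThTC, 9.77 to 101 in GFP-TC and 29.5 to 109 in sECM only, and that of 10 monocyte and macrophage genes from 1410 to 2531 in ThTC, 713 to 1506 in GFP-TC and 1013 to 1284 in sECM only. Markers of the labelled glioma cell line (Nes, Sox2, Sox9, Vim, Cd44, Olig2 and Egfr) summed to between 3667 and 5369 TPM in every library. Vim alone made up 3262 to 4753 TPM, so the sum mostly follows Vim. Nes had 35.1 to 41.8 TPM with ThTC and 45.1 to 57.5 TPM with sECM only. In the same groups Sox2 had 117 to 157 and 180 to 211 TPM, and Sox9 39.9 to 61.1 and 67.9 to 89.7 TPM. These genes did not overlap between ThTC and sECM only, whereas Vim, Cd44, Olig2 and Egfr did. The library GFP-TC 1 stood apart: it had the lowest neuron, T cell and monocyte sums, and it held the lowest value of 18 of the 39 chemokine genes tested, against 23.6% of all tested genes. ThTC 3, the library with the highest neuron sum, held the highest value of 14 of the 39, against 24.9% of all tested genes. In bulk tissue, fewer cells of a type and less RNA per cell cannot be told apart.

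Most ligands were expressed, and a pair of genes made up a large share of the ligand RNA. Ccl5, a ligand of Ccr1 made by T cells, NK cells and macrophages, and Cxcl10, an interferon-inducible ligand of Cxcr3, together made up 47.4% to 54.8% of the summed ligand TPM in each library. Cxcl10 had 318, 429 and 593 TPM in ThTC libraries, 269, 472 and 509 TPM with GFP-TC and 304, 305 and 454 TPM with sECM only. The groups overlapped throughout. Ccl5 had 430, 356 and 483 TPM in ThTC libraries, 250, 321 and 542 TPM with GFP-TC and 494, 293 and 433 TPM with sECM only, again with overlap between all groups. Ccl2, the main monocyte attractant acting on Ccr2, and the neuronal ligand Cx3cl1 were the other genes averaging 100 TPM or more over the 9 libraries. In all, 22 of the 56 genes averaged 10 TPM or more, and 16 of these were ligands.

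**Figure D1:**
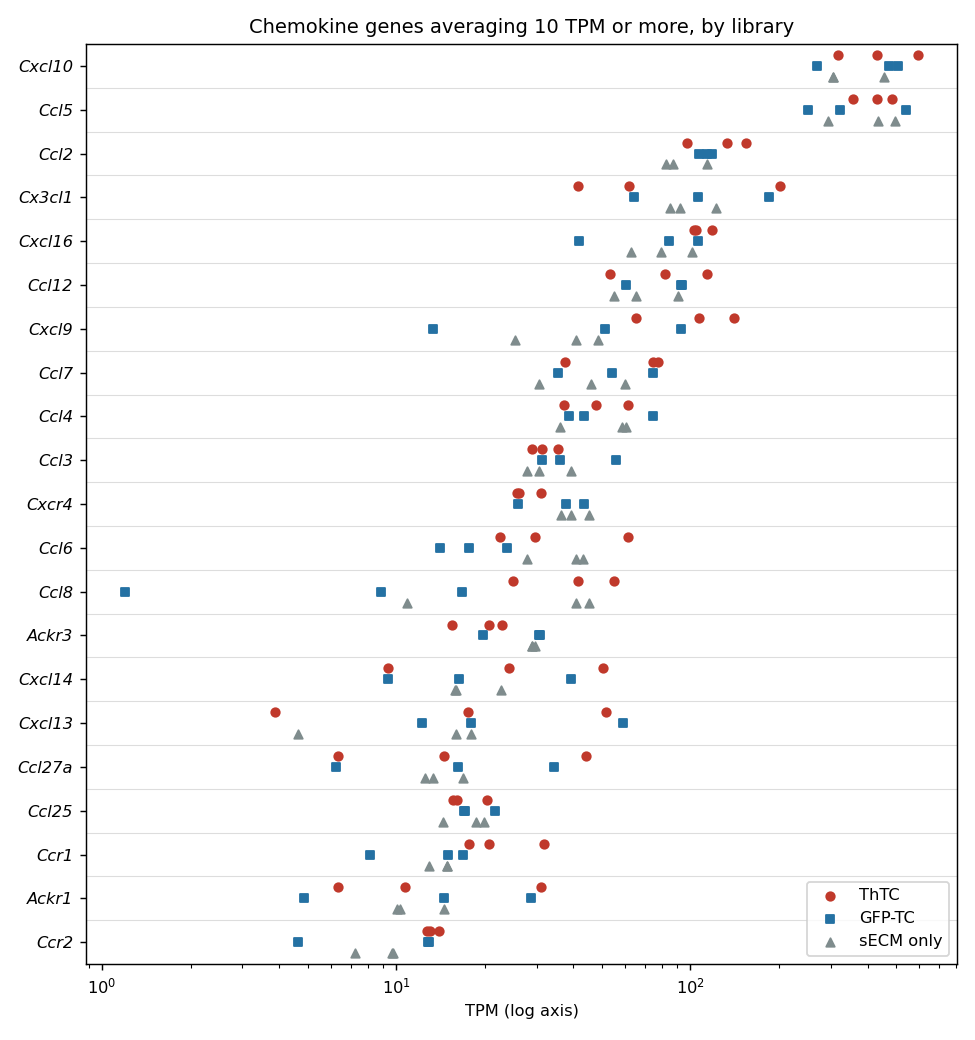
TPM on a log axis of 21 of the 22 chemokine genes averaging 10 TPM or more, with 1 point per library, coloured by group, in order of the mean. Cxcl10 and Ccl5 lie highest with overlapping groups, Ccl8 spans the widest fold range of the genes plotted (1.20 to 54.8 TPM), and the highest Cxcl9 values, 107 and 140 TPM, are of ThTC libraries.

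At the low end, Cxcl17 and Cxcr1 were listed at 0 in every library. In all, 17 genes, 8 ligands, 8 conventional receptors and Ackr4, did not reach 1 TPM in at least 3 libraries. They were not tested under this filter. The neutrophil attractants of the Cxcl1 group were among the lowest ligands. Cxcl1 lay between 0 and 1.23 TPM, Cxcl2 between 0.42 and 1.49 TPM, Cxcl3 between 0 and 0.83 TPM and Cxcl5 between 0.07 and 3.16 TPM, and their receptor Cxcr2 between 0.07 and 0.68 TPM. Ccl21a and Ccl21b, near-identical lymph node ligands whose reads the counting may split, were at most 0.99 TPM, while Ccl19, which shares their receptor Ccr7, reached 4.22 TPM.

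Cxcl10 and Cxcl9 are neighbours on chromosome 5 and their promoters are shown because both ligands act on Cxcr3 and are known interferon targets, yet their levels were unequally spread over the groups. Their genes lie at 92346638 to 92348889 (Cxcl10) and 92321331 to 92328079 (Cxcl9) of GRCm38.p6, both on the minus strand. The 250 bases before each start, from RefSeq on that build, cover chr5:92348890-92349139 for Cxcl10 and chr5:92328080-92328329 for Cxcl9, minus strand, 5′ to 3′. Capitals mark exact matches, on either strand, to the core of the interferon-stimulated response element (GAAA, any 2 bases, GAAA), the gamma-activated site (TTC, any 3 bases, GAA) or a kappa-B pattern (GGGA, any 2 bases, T, any base, CC).
Cxcl10: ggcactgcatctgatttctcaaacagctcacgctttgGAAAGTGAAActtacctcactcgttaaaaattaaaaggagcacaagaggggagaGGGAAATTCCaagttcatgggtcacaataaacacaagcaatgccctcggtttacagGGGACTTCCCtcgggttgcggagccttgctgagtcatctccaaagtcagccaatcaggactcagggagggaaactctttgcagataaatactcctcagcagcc
Cxcl9: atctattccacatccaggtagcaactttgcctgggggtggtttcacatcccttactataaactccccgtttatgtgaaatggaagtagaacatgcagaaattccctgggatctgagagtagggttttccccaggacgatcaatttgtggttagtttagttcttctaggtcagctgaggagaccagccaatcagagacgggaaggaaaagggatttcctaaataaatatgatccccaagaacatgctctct

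The Cxcl10 window held 1 response element core, starting 213 bases before the start, and 2 kappa-B matches, starting 159 and 103 bases before it, with no overlap between them. None of the 3 patterns was found in these letters of the Cxcl9 window. Of the 56 genes, 44 had an entry in the promoter table, with 51 promoters between them. A response element core was in 5.88% of these promoters and in 2.98% of all 32851 promoters of that length, a gamma-activated site in 7.84% and 7.02%, and a kappa-B match in 13.7% and 3.33%. The 7 chemokine genes with a kappa-B match included Cxcl1, Cxcl2 and Cxcl3, none of which was above 1.49 TPM in any library. A match is a description of the letters and does not show that a factor binds there.

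Setting ThTC against GFP-TC addresses the effect of the secreted factors over that of the cells alone. The ligand genes Ccl8, Ccl9 and Ccl6 and the receptor gene Ccr1, all known from monocytes and macrophages, had higher means with ThTC, and so did Cxcl9. Limma on log2(TPM + 1) with all 9 libraries passed 0 of the 39 tested chemokine genes at an adjusted p of 0.05, as it did for 0.0% of the 13829 genes tested. At an unadjusted p under 0.05 there were 4, Ccl6, Ccl8, Ccl9 and Ccr1, all higher with ThTC, where 14.9% of all tested genes were under that level, 2.03% higher and 12.9% lower. The count of 4 was 2 without GFP-TC 1, where 22.3% of all tested genes were under that level. It was 2 without ThTC 2 (5.63%) and 11 without GFP-TC 3, 9 higher and 2 lower (14.8%). Values of ThTC and GFP-TC stood apart for 3 of the 39, Ccl8, Ccl9 and Ccr1, all higher, where 19.1% of all tested genes stood apart, 2.2% higher and 16.9% lower.

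Ccl8, a monocyte chemoattractant that in mice is a ligand of Ccr8, had 25.0, 54.8 and 41.6 TPM with ThTC, against 1.20, 8.90 and 16.7 TPM with GFP-TC. Every ThTC library lay above every GFP-TC library, with a log2 fold change of 2.44 ± 0.79 (SE; limma, adjusted p = 0.32). Without GFP-TC 1, where Ccl8 was lowest, the log2 fold change was 1.58. Ccl8 was not low in the third group: sECM only had 40.95, 10.9 and 45.4 TPM, a range that holds 2 of the 3 ThTC values. It lies on chromosome 11 (82115185 to 82116799) in a run of ligand genes with Ccl2, Ccl7, Ccl11 and Ccl12, and none of these neighbours stood apart between ThTC and GFP-TC. The neighbour Ccl12 (82101845 to 82103399), a mouse monocyte attractant, had 53.5, 82.3 and 113.9 TPM with ThTC, against 93.8, 60.4 and 92.6 TPM with GFP-TC, so these groups overlapped.

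Ccl9 and Ccl6, neighbouring CC ligands of mouse myeloid cells that act on Ccr1, were also higher on average with ThTC than with GFP-TC. Ccl9 had 8.66, 15.2 and 11.6 TPM with ThTC, against 7.43, 7.08 and 7.37 TPM with GFP-TC, a log2 fold change of 0.60 ± 0.20 (SE; limma, adjusted p = 0.32). The GFP-TC values were close together and all lay below the ThTC values. Ccl6 had 22.5, 61.2 and 29.7 TPM with ThTC, against 14.0, 23.9 and 17.6 TPM with GFP-TC (log2 fold change 0.90 ± 0.36; limma, adjusted p = 0.32), and the groups overlapped. Without ThTC 2, the highest library, the value for Ccl6 was 0.49. Neither ligand was low in the third group: sECM only had 9.19, 10.4 and 11.9 TPM of Ccl9 and 27.9, 41.0 and 43.0 TPM of Ccl6. Both overlapped between ThTC and sECM only. Ccr1, the receptor for these ligands and for Ccl3 and Ccl5, had 17.6, 31.8 and 20.7 TPM with ThTC, against 8.13, 16.8 and 14.9 TPM with GFP-TC (log2 fold change 0.78 ± 0.28; limma, adjusted p = 0.32). All 3 ThTC libraries lay above all 3 GFP-TC libraries, and the value was 0.49 without GFP-TC 1.

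**Figure D2:**
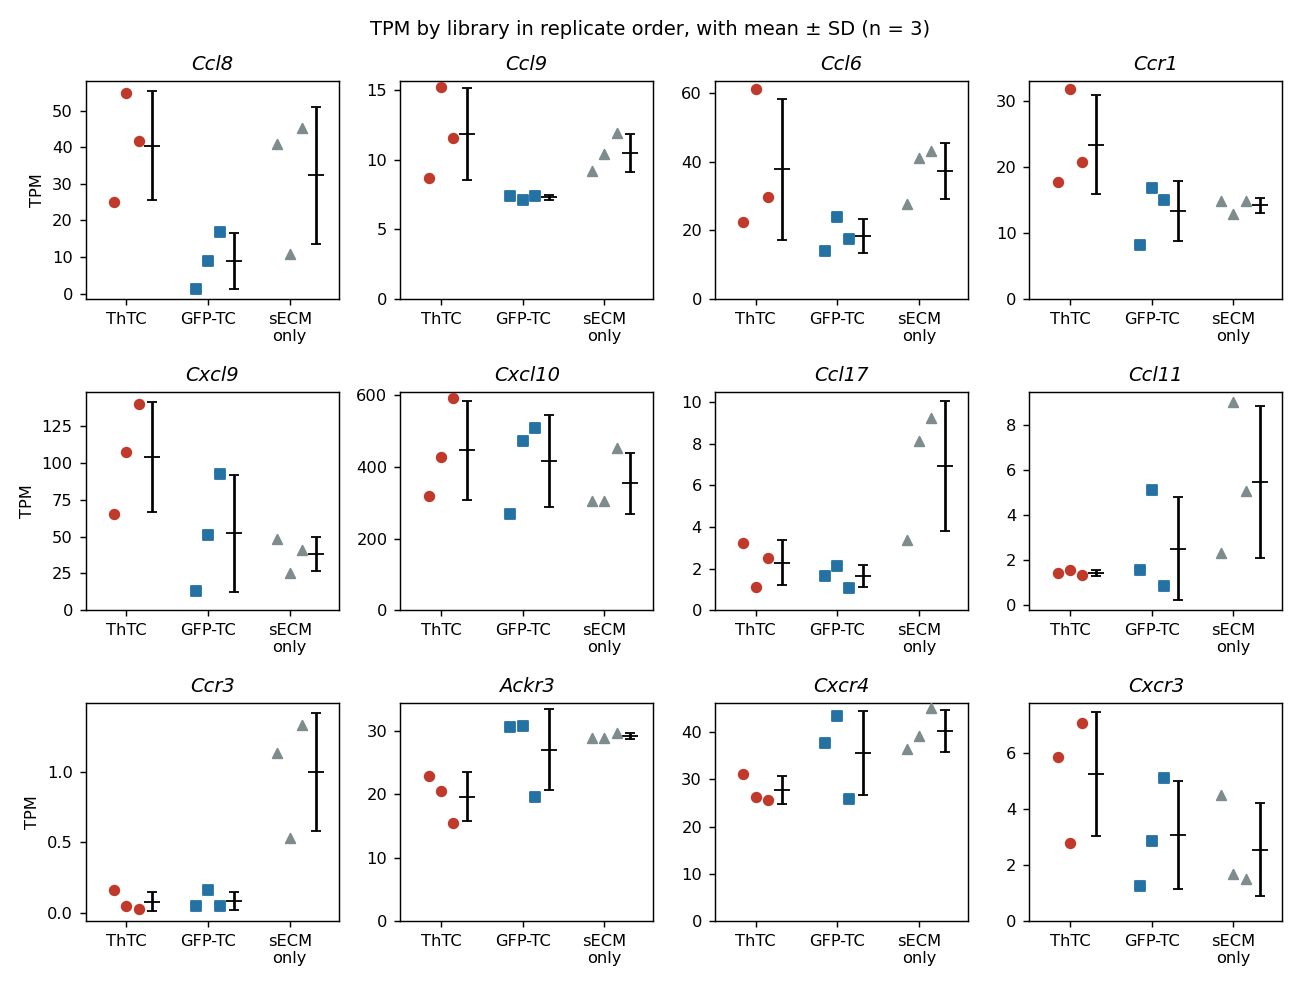
TPM of 12 chemokine genes in each library, in replicate order within ThTC, GFP-TC and sECM only, with the mean and SD of each group (n = 3) beside the points. ThTC lies wholly above GFP-TC for Ccl8, Ccl9 and Ccr1, and sECM only lies above both other groups without overlap for Ccl17 and Ccr3.

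The monocyte and macrophage list leaned the same way, at 1410 to 2531 TPM with ThTC, against 713 to 1506 TPM with GFP-TC, with overlap. All 10 of its genes were at 1 TPM or more in every library. Lyz2, the largest value in the sum, had 694 to 1500 TPM with ThTC and 373 to 564 TPM with GFP-TC. Lyz2 and Ms4a7 stood apart between these groups and the other genes of the list overlapped, so ratios to the list lean on Lyz2. Set against that list, Ccr1 was nearly level: it had 1.25, 1.26 and 1.05 TPM per 100 TPM of the list with ThTC and 1.14, 1.27 and 0.992 with GFP-TC. Over all 9 libraries this ratio varied 1.48-fold, while Ccr1 itself varied 3.91-fold. Ccl9 per 100 TPM of the list was 0.614, 0.602 and 0.589 with ThTC and 1.04, 0.534 and 0.489 with GFP-TC, and so overlapped. The Ccl6 ratio was 1.60, 2.42 and 1.51 with ThTC and 1.97, 1.80 and 1.17 with GFP-TC, also with overlap. Ccl8 kept its separation on this scale, with 1.77, 2.17 and 2.12 TPM per 100 TPM with ThTC against 0.168, 0.671 and 1.11 with GFP-TC. For sECM only the Ccl8 ratio was 3.19, 0.992 and 4.48. These ratios were chosen after the values were seen and were not tested.

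Cxcl9, the Cxcr3 ligand known as a target of interferon-gamma, had 65.2, 107 and 140 TPM with ThTC, against 13.4, 51.2 and 92.8 TPM with GFP-TC. The groups overlapped, with a log2 fold change of 1.28 ± 0.62 (SE; limma, adjusted p = 0.36), or 0.52 without GFP-TC 1. Cxcl10 was close to level in the same comparison, with a log2 fold change of 0.11 ± 0.30 (limma, adjusted p = 0.93) that was -0.18 without GFP-TC 1 and -0.12 without ThTC 3. The difference between the 2 ligands was not tested. Their receptor Cxcr3, found on activated T cells and NK cells, had 5.86, 2.81 and 7.08 TPM with ThTC, against 1.28, 2.87 and 5.10 TPM with GFP-TC, with overlap (log2 fold change 0.66 ± 0.46; limma, adjusted p = 0.50). The Cxcr3 value was 0.29 without GFP-TC 1 and 1.003 without GFP-TC 3.

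The abundant ligands Ccl2 and Ccl5 differed by less than the spread between libraries. Ccl2 had a mean of 128 ± 29.1 TPM with ThTC against 113 ± 5.67 TPM for GFP-TC (SD, n = 3; log2 fold change 0.15 ± 0.18; limma, adjusted p = 0.72), and the log2 fold change was 0.0044 without ThTC 2 and 0.34 without ThTC 1. Its receptor Ccr2, which marks monocytes leaving the bone marrow, had 14.0, 13.1 and 12.7 TPM with ThTC, against 4.63, 12.9 and 12.8 TPM with GFP-TC (log2 fold change 0.47 ± 0.33; limma, adjusted p = 0.50), and without GFP-TC 1 the value was 0.041. Ccl5 had a log2 fold change of 0.25 ± 0.29 (limma, adjusted p = 0.71), which was 0.0084 without GFP-TC 1 and 0.56 without GFP-TC 3. Ackr3, an atypical receptor that scavenges Cxcl12, leaned the other way, with 22.9, 20.6 and 15.5 TPM with ThTC against 30.7, 30.8 and 19.7 TPM with GFP-TC (log2 fold change -0.43 ± 0.20; limma, adjusted p = 0.34), and the groups overlapped through the low GFP-TC 3 value.

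By role, 17 of 27 ligands tested, 7 of 9 conventional receptors and 1 of 3 atypical receptors had a positive log2 fold change, 25 of 39 in all, where 33.8% of all tested genes were positive. The median of the 39 was 0.13, beside -0.10 for all tested genes. Dividing each library by its median-of-ratios factor moved the median of all genes by 0.13 to 0.021, and the median of the 39 was then 0.24 with 29 positive. The median of the 39 was -0.15 without GFP-TC 1 and -0.11 without ThTC 3. With same-numbered libraries taken as pairs, limma in these 6 libraries called 8 genes (0.0578% of all tested genes), 0 of them among the chemokine genes. In that fit 12 of the 39 chemokine genes had an unadjusted p under 0.05, 10 higher and 2 lower, where 17.3% of all tested genes did, 5.81% higher and 11.5% lower. Ccl8 came closest, at an adjusted p of 0.056 in that fit, followed by Ccl6 (0.089) and Cxcl9 (0.095).

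**Figure D3:**
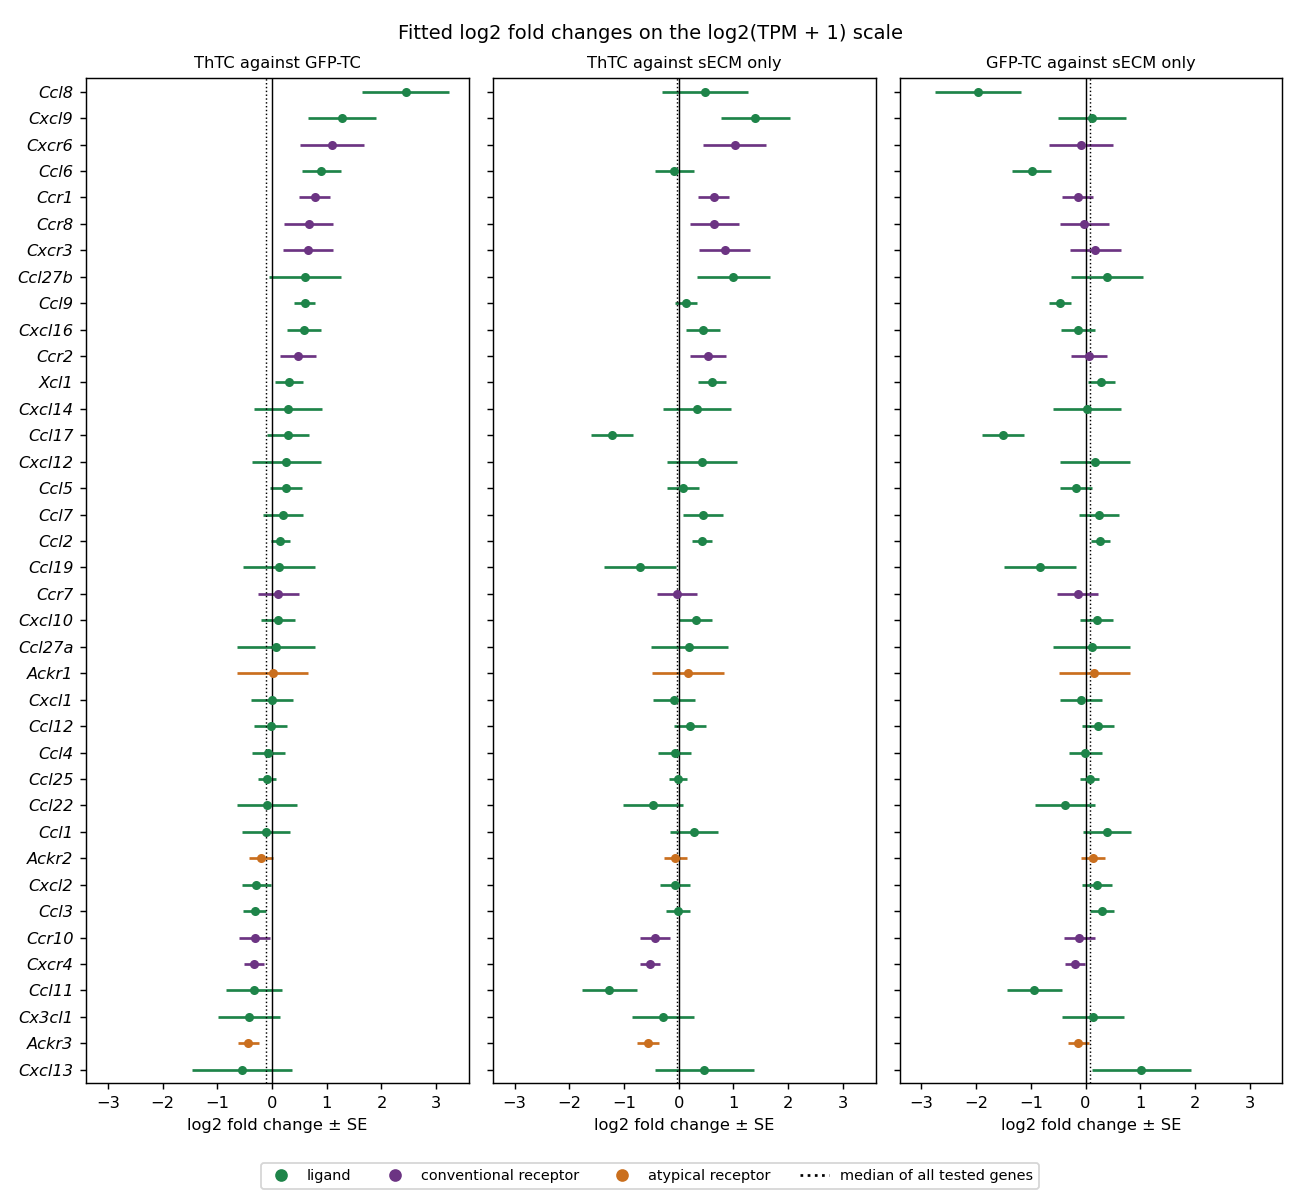
Fitted log2 fold changes with SE of 38 of the 39 tested chemokine genes in the 3 comparisons, in the order of the first panel, coloured by role, with the median of all tested genes as a dotted line. In the first panel Ccl8 lies farthest right at 2.44, and Ccl17 lies low in both comparisons with sECM only (-1.23 and -1.52).

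Against sECM only, ThTC carries both the cells and their secreted factors. Ccl17, Ccl11 and the receptor Ccr3, known from dendritic cells, stromal cells and eosinophils, had lower values with ThTC, as did the Cxcl12 receptors Cxcr4 and Ackr3, while Cxcl9, Cxcl16, Ccr1 and Ccr2 had higher values. Limma passed 0 of the 39 genes (0.0% of all tested genes). At an unadjusted p under 0.05 there were 6, with Ccl2 and Xcl1 higher and Ccl17, Ccl11, Cxcr4 and Ackr3 lower, where 6.9% of all tested genes were under that level, 1.54% higher and 5.36% lower. The count of 6 was 3 without ThTC 3 (3.83% of all tested genes), sECM only 2 (3.82%) or sECM only 3 (2.85%). It was 9 without GFP-TC 1 (10.3%). Values of ThTC and sECM only stood apart for 8 of the 39, 4 higher and 4 lower, where 17.1% of all tested genes stood apart, 5.03% higher and 12.1% lower. The median of the 39 was 0.19, beside -0.032 for all tested genes, and was -0.045 without ThTC 3.

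Ccl17, a ligand of Ccr4 made by dendritic cells and macrophages, had 3.25, 1.13 and 2.50 TPM with ThTC, against 3.37, 8.15 and 9.22 TPM with sECM only (log2 fold change -1.23 ± 0.38; limma, adjusted p = 0.69). All ThTC libraries lay lower, by a narrow margin between ThTC 1 and sECM only 1. Ccl11, the eotaxin that attracts eosinophils through Ccr3, had 1.42, 1.57 and 1.31 TPM with ThTC, against 2.31, 9.02 and 5.08 TPM with sECM only (log2 fold change -1.27 ± 0.50; limma, adjusted p = 0.69), and the groups did not overlap. Ccr3 itself lay under the filter and was fitted only in an alternative without a filter. It had 0.16, 0.05 and 0.03 TPM with ThTC, against 1.13, 0.53 and 1.33 TPM with sECM only, and every sECM only library lay above every library of the other groups.

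Ccl22, which shares Ccr4 with Ccl17 and lies in the same stretch of chromosome 8 (94745684 to 94751388, with Ccl17 at 94809380 to 94812038), did not separate the groups, at 8.72, 4.06 and 9.94 TPM with ThTC and 9.79, 7.94 and 13.8 TPM with sECM only. Ccr4 was at most 0.80 TPM in any library. The summed TPM of the dendritic cell list, which includes Ccr7, was 54.8 to 84.1 with ThTC and 47.0 to 85.0 with sECM only, and overlapped. Itgax was the largest value in this sum in every library, so the sum leans on Itgax. It made up 38.2 of the 84.1 TPM in ThTC 3 and 54.2 of the 85.0 TPM in sECM only 3. Each gene of the list overlapped between these groups. The part of dendritic cell content in Ccl17 was not tested.

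Cxcr4, the signalling receptor of Cxcl12, had 31.1, 26.2 and 25.7 TPM with ThTC, against 36.4, 39.2 and 45.1 TPM with sECM only (log2 fold change -0.52 ± 0.18; limma, adjusted p = 0.69). Ackr3 had 22.9, 20.6 and 15.5 TPM with ThTC, against 28.9, 28.9 and 29.7 TPM with sECM only (log2 fold change -0.56 ± 0.20; limma, adjusted p = 0.69). Neither gene overlapped between these groups. The glioma markers Nes, Sox2 and Sox9 were also lower with ThTC without overlap, while Vim, Cd44, Olig2 and Egfr overlapped. The part of tumour content in Cxcr4 and Ackr3 was not tested. Cxcl12 itself was low, at 1.86, 6.87 and 13.2 TPM with ThTC and 4.62, 3.96 and 3.69 TPM with sECM only, and overlapped.

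Cxcl9 had 65.2, 107 and 140 TPM with ThTC, against 48.6, 25.3 and 40.9 TPM with sECM only, without overlap (log2 fold change 1.40 ± 0.62; limma, adjusted p = 0.69). Cxcl16, a membrane-bound ligand of Cxcr6, had 104, 103 and 118 TPM with ThTC, against 101, 62.6 and 79.5 TPM with sECM only, where ThTC 2 and sECM only 1 nearly met. Ccr1 had 17.6, 31.8 and 20.7 TPM with ThTC, against 14.9, 12.9 and 14.9 TPM with sECM only, also without overlap. Ccr2 had 14.0, 13.1 and 12.7 TPM with ThTC, against 9.72, 7.23 and 9.69 TPM with sECM only (log2 fold change 0.54 ± 0.33; limma, adjusted p = 0.70). For these 4 genes every ThTC library lay above every sECM only library. Ccl2, the ligand of Ccr2, had 97.0, 155 and 133 TPM with ThTC, against 82.4, 87.3 and 114 TPM with sECM only, with overlap (log2 fold change 0.42 ± 0.18, or 0.27 without ThTC 2; limma, adjusted p = 0.69). The sums of both the monocyte list (1410 to 2531 TPM in ThTC, 1013 to 1284 TPM in sECM only) and the T cell list (111 to 127 TPM in ThTC, 29.5 to 109 TPM in sECM only) were higher with ThTC without overlap. Lyz2, the largest value in the monocyte sum, had 694 to 1500 TPM with ThTC and 362 to 570 TPM with sECM only. Ly6c2 and Fcgr1 were also higher without overlap, while the other genes of that list overlapped and Mrc1 leaned lower. The T cell sums nearly met between ThTC 2 and sECM only 1, and Cd3d, Cd3e, Cd4, Cd8a and Cd8b1 overlapped. The part of these lists in the differences was not tested.

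Cxcl10, Ccl5 and Cxcr3 overlapped between ThTC and sECM only. Their log2 fold changes were 0.31 ± 0.30 for Cxcl10, 0.079 ± 0.29 for Ccl5 and 0.84 ± 0.46 for Cxcr3 (SE; limma, adjusted p = 0.80, 0.94 and 0.69). Xcl1, a ligand released by activated CD8 T cells and NK cells, had 11.2, 6.94 and 9.27 TPM with ThTC and 7.92, 4.20 and 5.15 TPM with sECM only, and its groups overlapped through sECM only 1.

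GFP-TC against sECM only addresses the control cells themselves, and it shares a group with each comparison above. Limma passed 0 of the 39 genes (0.0% of all tested genes). At an unadjusted p under 0.05 there were 4, Ccl17, Ccl6, Ccl8 and Ccl9, all lower with GFP-TC, where 0.933% of all tested genes were under that level, 0.434% lower and 0.499% higher. The count of 4 was 1 without sECM only 3, where 1.38% of all tested genes were under that level. It was 2 without sECM only 2 (0.687%), GFP-TC 3 (1.23%) or GFP-TC 1 (9.5%), and without GFP-TC 1 it was 1 higher and 1 lower. Values stood apart for 3 of the 39, Ccl17, Ccl6 and Ccl9, all lower, where 4.23% of all tested genes stood apart, 1.08% lower and 3.15% higher. Of the 39 genes, 20 had a positive log2 fold change, where 71.8% of all tested genes were positive, and their median was 0.031 beside 0.077 for all tested genes. After median-of-ratios scaling 17 of the 39 were positive, with a median of -0.057, against 47.4% of all tested genes.

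Ccl17 had 1.67, 2.14 and 1.08 TPM with GFP-TC, against 3.37, 8.15 and 9.22 TPM with sECM only (log2 fold change -1.52 ± 0.38; limma, adjusted p = 0.997). Ccl6 had 14.0, 23.9 and 17.6 TPM with GFP-TC, against 27.9, 41.0 and 43.0 TPM with sECM only (log2 fold change -0.98 ± 0.36; limma, adjusted p = 0.997). Per 100 TPM of the monocyte and macrophage list Ccl6 was 1.97, 1.80 and 1.17 with GFP-TC and 2.17, 3.74 and 4.25 with sECM only. Ccl9 had 7.43, 7.08 and 7.37 TPM with GFP-TC, against 9.19, 10.4 and 11.9 TPM with sECM only (log2 fold change -0.46 ± 0.20; limma, adjusted p = 0.997). In TPM, all GFP-TC libraries lay below all sECM only libraries for these 3 genes. Per 100 TPM of the list, Ccl9 was 1.04, 0.534 and 0.489 with GFP-TC and 0.716, 0.947 and 1.18 with sECM only, and overlapped. The ratios were not tested.

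Ccl8 had 1.20, 8.90 and 16.7 TPM with GFP-TC, against 40.95, 10.9 and 45.4 TPM with sECM only, with overlap (log2 fold change -1.97 ± 0.79; limma, adjusted p = 0.997). The value was -1.10 without GFP-TC 1 and -2.61 without GFP-TC 3. Ccl11 had 1.56, 5.13 and 0.82 TPM with GFP-TC and overlapped with sECM only (log2 fold change -0.94 ± 0.50; limma, adjusted p = 0.997). Ccr3 had 0.05, 0.16 and 0.05 TPM with GFP-TC, as low as with ThTC. For the genes followed in all comparisons the log2 fold changes were 0.27 ± 0.18 for Ccl2, 0.21 ± 0.30 for Cxcl10, 0.12 ± 0.62 for Cxcl9, 0.18 ± 0.46 for Cxcr3, 0.064 ± 0.33 for Ccr2 and -0.17 ± 0.29 for Ccl5 (SE; limma, adjusted p = 0.997 each). Leaving out GFP-TC 3 gave -0.47 for Cxcl9, and leaving out GFP-TC 1 gave 0.88, so its direction rested on single libraries.

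Some chemokine genes varied widely between libraries of the same group. Cxcr6, a receptor of tissue-resident T cells, had 9.11, 5.33 and 7.40 TPM in ThTC libraries, 0.74, 3.76 and 5.58 TPM with GFP-TC and 7.57, 1.44 and 2.09 TPM with sECM only, a 12.3-fold range. Per 100 TPM of the T cell list it was 7.92, 4.82 and 5.85 with ThTC, 7.57, 4.61 and 5.51 with GFP-TC and 6.94, 4.89 and 4.05 with sECM only, a 1.95-fold range. The GFP-TC 1 library, at 9.77 TPM of T cell genes, was the lowest of the 9 in both Cxcr6 and the T cell list, and its ratio lay above those of the other GFP-TC libraries. The part of T cell content in the range of Cxcr6 was not tested. Cxcr3 did not share this: GFP-TC 1 had 13.1 TPM of Cxcr3 per 100 TPM of the list, above the 2.54 to 5.77 of the other libraries. Ccr8, a receptor of regulatory T cells, was between 0.19 and 2.81 TPM, lowest in GFP-TC 1.

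Cx3cl1, the ligand by which neurons signal to microglia through Cx3cr1, was highest where neuron genes were highest. It had 41.5, 61.8 and 201 TPM in ThTC libraries, 64.2, 106 and 185 TPM with GFP-TC and 91.9, 84.9 and 122 TPM with sECM only. The 2 libraries with the highest neuron sums, ThTC 3 and GFP-TC 3, had the highest values. Below them the order differed: sECM only 3 had more Cx3cl1 than sECM only 1 at a lower neuron sum. Per 100 TPM of the neuron list, Cx3cl1 was 13.4 to 15.1 with ThTC and 18.1 to 33.0 with sECM only. With GFP-TC it was 14.7 to 28.5, and the range over all libraries was 2.47-fold. The part of tissue content in the range of Cx3cl1 was not tested. Cxcl14, Cxcl12 and Ccl27a, tissue ligands with baseline expression in brain or skin, were also highest in ThTC 3, at 50.4, 13.2 and 44.2 TPM, and next highest in GFP-TC 3, at 39.3, 11.7 and 34.5 TPM. Cxcl13, a B cell attractant, was highest in GFP-TC 3 (58.9 TPM) and ThTC 3 (51.8 TPM), and lay between 3.88 and 18.0 TPM in the other libraries. The list of B and plasma cell genes summed to between 10.9 and 19.9 TPM in all 9 libraries.

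Ackr1, the atypical receptor of venules and red cells, shared this order, with 6.35, 10.7 and 31.1 TPM in ThTC libraries, 4.87, 14.5 and 28.8 TPM with GFP-TC and 10.04, 14.5 and 10.3 TPM with sECM only. In RefSeq its gene overlaps that of the neural adhesion molecule Cadm3 by 1612 bases, and Cadm3 had 6.27, 13.9 and 71.5 TPM in ThTC libraries, 3.87, 19.4 and 56.05 TPM with GFP-TC and 19.04, 10.3 and 9.95 TPM with sECM only. Whether the counting used strand was not given in the sources used here, so reads of the overlapping genes cannot be told apart. The same holds for Ccr10, which was 0.83 to 3.35 TPM and overlaps the neuronal gene Cntnap1 by 827 bases, and for Cxcr6, which overlaps Fyco1 (5.47 to 10.5 TPM). Cxcl10 lies within Art3, which was at most 4.07 TPM. Ccl3 and Ccl4, paired macrophage ligands and neighbours on chromosome 11, overlap by 755 bases in RefSeq.

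**Figure D4:**
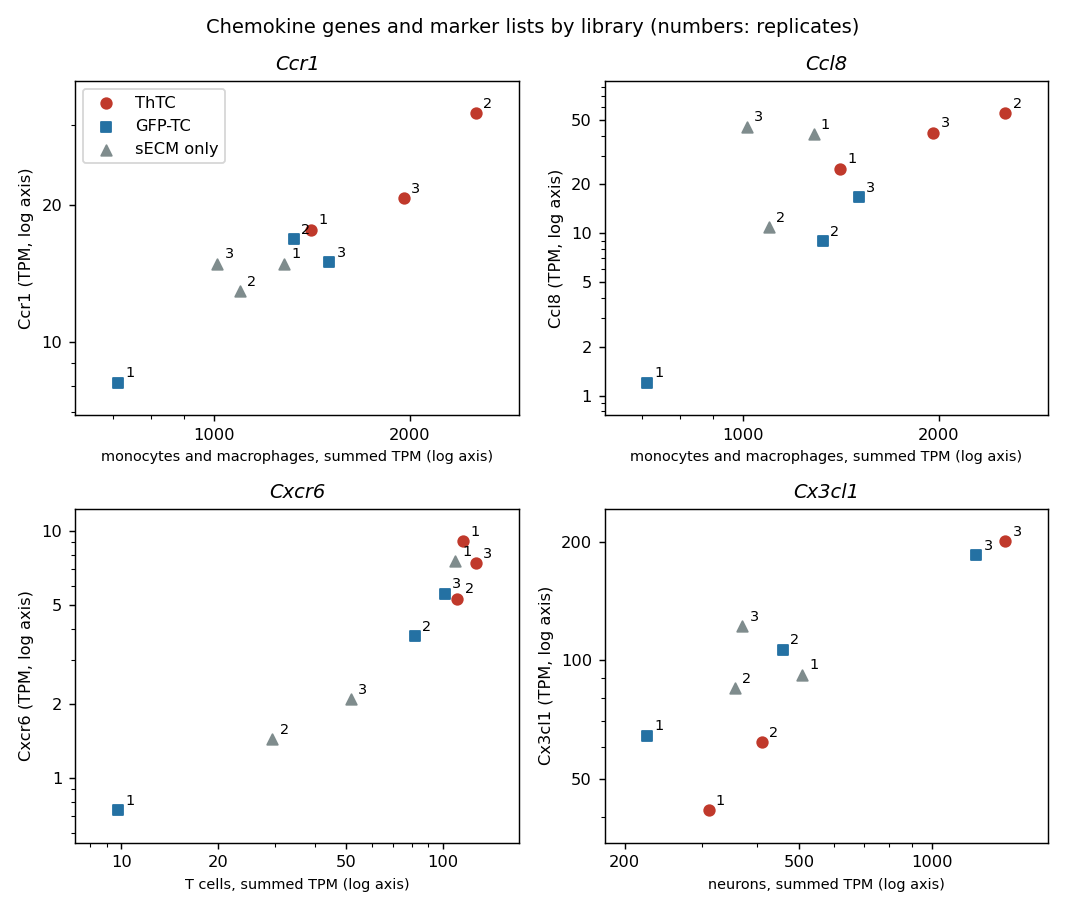
TPM of Ccr1, Ccl8, Cxcr6 and Cx3cl1 against the summed TPM of a marker list in each of the 9 libraries, on log axes, with points numbered by replicate. Ccr1 and Cxcr6 keep to narrow ratios with their lists (1.48-fold and 1.95-fold ranges), while Ccl8 per list varies 26.6-fold.

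Ccl25, a ligand of thymus and gut, was the steadiest of the 39 tested genes and varied 1.51-fold over the 9 libraries, between 14.4 and 21.7 TPM, although its receptor Ccr9 was at most 0.73 TPM. Cxcr4 varied 1.75-fold and Ccl2 1.88-fold. The macrophage ligands Ccl3 (27.7 to 55.8 TPM) and Ccl4 (35.9 to 74.6 TPM) varied 2.01-fold and 2.08-fold, with the highest value of each in GFP-TC 3.

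A further list held 30 other genes of chemokine signalling, among them receptors and ligands under other symbols, G protein subunits, arrestins and integrins, of which 28 were tested. Limma passed 0 of them in each comparison. At an unadjusted p under 0.05 there was 1, Pf4, for ThTC against GFP-TC, and 0 in each of the other comparisons. Pf4, a CXC ligand of platelets and macrophages, had 15.5, 52.3 and 21.6 TPM with ThTC, against 15.9, 12.1 and 11.4 TPM with GFP-TC, and overlapped. Cx3cr1, the microglial receptor of Cx3cl1, had 48.9, 55.3 and 111 TPM in ThTC libraries, 25.0, 52.0 and 88.5 TPM with GFP-TC and 62.5, 29.3 and 45.3 TPM with sECM only. The median log2 fold change of the 28 was 0.25 in ThTC over GFP-TC, 0.30 in ThTC over sECM only, and 0.019 in GFP-TC over sECM only.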

How the data were processed

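Total RNA of tumour tissue was extracted with a column kit and sequenced on a DNBseq instrument to 4.47 Gb of bases per sample, per the labels' protocols. Each deposited file gives the authors' TPM for every gene of a library to 2 decimals, per the file headers. The submitters' processing notes name HISAT, with no version, and the builds GRCm38.p6 and mm10; which quantifier, annotation or filters were used was not given in the sources used here. This unit scales each library to the same total, so higher values of some genes lower the others, and it keeps no depth, so no count model or counting interval was used.

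Values were analysed as log2(TPM + 1), which understates the change of low genes. The 13829 genes that reached 1 TPM in 3 or more libraries entered limma 3.58.1 under R 4.3.3 (intensity trend, all 9 libraries in one fit), with Benjamini-Hochberg adjustment over all tested genes within each comparison and a threshold of 0.05. The steps were tested on simulated data with noise drawn independently for each gene and library. That test does not cover variation that many genes share within a library. Python 3.11.15 and matplotlib 3.10.9 were used for tables and figures. Positions and promoters are from RefSeq on GRCm38.p6 and count from 1. Marker sums add the TPM of a list's genes.

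The members, lists and alternatives were chosen with earlier results of these data known, and the ratios to marker lists after the values were seen. Fit values are given, per comparison, for the 5 members with the smallest p and for Cxcl9, Cxcl10, Ccl5, Ccl2, Cxcr3 and Ccr2; other members are given as TPM. 1 gene that fits the symbol pattern was left out of the members, and a few others of the lists, though included in counts and medians, are not reported here.

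Same-numbered ThTC and GFP-TC libraries deviated together from their group means over tested genes, at correlations of 0.74, 0.12 and 0.87 for numbers 1, 2 and 3, and were treated as pairs in an alternative fit. What the numbers mean is not stated in the labels, and unlike numbers correlated too (ThTC 2 with GFP-TC 1 at 0.38). Those of sECM only correlated at -0.55, 0.28 and -0.21 with ThTC and at -0.53, -0.14 and -0.19 with GFP-TC. Alternatives were other pseudocounts, filters, scalings and libraries, a brain tissue covariate and the replicate block.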

Additional observations from a re-analysis of the deposited data

How the results depend on the processing

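In 60 fits, 20 for each comparison, limma passed 0 chemokine genes, and the smallest adjusted p of a member was 0.056, for Ccl8 in ThTC against GFP-TC with a replicate block in 6 libraries. Counts of all genes passing were 0 as analysed in each comparison. They were 8 for ThTC against GFP-TC with that block, 2 for ThTC against sECM only with the brain tissue covariate, and 1 for GFP-TC against sECM only both with that covariate and with a replicate block in 9 libraries. With single libraries left out they ranged from 0 to 0 for ThTC against GFP-TC and from 0 to 1 for each of the others (1 without sECM only 1 in both, and 1 without sECM only 2 for GFP-TC against sECM only). The numbers pair sECM only with neither other group by the check of deviations, and blocks changed no other call. The cause of these differences was not tested.

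The median log2 fold change of tested chemokine genes ranged from -0.15 to 0.33, from -0.045 to 0.40 and from -0.25 to 0.28 with single libraries left out, in the order ThTC over GFP-TC, ThTC over sECM only, GFP-TC over sECM only. Of 32 named fit values, 26 kept their sign under every alternative run. With libraries left out, Cxcl10 ranged from -0.18 to 0.33 for ThTC against GFP-TC and Ccl5 from -0.14 to 0.24 for ThTC against sECM only. For GFP-TC against sECM only, Ccl5 ranged from -0.49 to 0.071, Ccr2 from -0.16 to 0.50, Cxcl9 from -0.47 to 0.88 and Cxcr3 from -0.17 to 0.54. The brain tissue covariate gave -0.025 for Ccl5 in ThTC against sECM only and -0.070 for Cxcl9 in GFP-TC against sECM only, and Ccr2 in GFP-TC against sECM only was -0.021 with median-of-ratios scaling and -0.026 with quantile normalization. TPM keeps no depth, so low genes such as Ccr3 carry an unknown counting error.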
